A study of Mus musculus with 4 samples.

Results

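The urea cycle and the breakdown of amino acids in the periportal liver were followed through 10 genes, taken by symbol from the 24346 symbols listed for each library. They were the urea cycle enzymes Cps1, Otc, Ass1, Asl and Arg1, the amino acid catabolic enzymes Sds, Hal, Gls2 and Tat, and Cdh1, which encodes the adhesion protein E-cadherin. RNA came from the liver of male ob/ob mice, which lack leptin and become obese on any diet. The mice were 6 weeks old when feeding began and ate their diet for 4 weeks. CD was a regular chow and WD a Western type diet high in fat, and each was given without 7-ketocholesterol (CD, WD) or with 0.01% of it (CD+7KC, WD+7KC). By the paper's recipe WD also held less casein, more sucrose, and cocoa butter where CD held corn oil. Fat, protein and sugar thus changed together between the diets and cannot be told apart. 7-Ketocholesterol (7KC) is an oxidised form of cholesterol found in food, and all 4 diets contained 1% cholesterol. The lack of leptin was thus shared by the control groups, and no lean mouse was part of the comparison.

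Ammonia released from amino acids is toxic, and the liver turns it into urea. Carbamoyl phosphate is made from ammonia in the mitochondria and joined to ornithine, which gives citrulline. Citrulline passes through argininosuccinate to arginine, from which arginase releases urea. Hepatocytes near the portal vein, where blood rich in amino acids enters the lobule, carry most of these enzymes, while hepatocytes near the central vein hold glutamine synthetase and take up the ammonia that is left. Many of the genes respond to glucagon, glucocorticoids and protein intake.

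Each group had 1 library, so that no difference below has a replicate check and no test was possible. The sources used here do not say how many mice stand behind a library. Values are FPKM (fragments per kilobase of exon, scaled to the number of mapped fragments) as deposited, a level per length that can be set side by side between genes. A log2 fold change was the log2 of the ratio of FPKM + 0.1, and a gene was called higher or lower when it passed 2-fold. From the steps between low FPKM values, depth was estimated at 11000000 mapped fragments for CD and for CD+7KC, 9410000 for WD and 12100000 for WD+7KC. On this scale each of the 9 enzymes rested on 1536 to 22149 estimated reads in a library. The 95% intervals given are exact (Clopper-Pearson) intervals of the FPKM ratio and cover counting error only. The FPKM of all symbols added up to 602059 in WD+7KC and to between 696062 and 715605 in the other libraries. After rescaling to equal sums, the median over all genes moved from 0.0021 to 0.21 in WD+7KC compared to WD, and from 0.0026 to 0.20 in WD+7KC compared to CD+7KC. Counts and medians of the 10 genes in comparisons with WD+7KC are therefore also given after rescaling, as are those of other lists where it turned their direction.

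The hepatocyte gene Alb was at 30014 to 35981 FPKM, and the enzymes ranked between place 70 (Arg1 in WD) and place 2103 (Hal in WD+7KC) among all symbols. Cdh1 was far lower, between place 5960 in WD and place 10665 in CD+7KC. The RNA was from whole liver, so that the position of a cell in the lobule was not measured, and fewer cells of a type cannot be told apart from less RNA per cell. All 10 genes were above 0 FPKM in all 4 libraries and entered every comparison, while Cdh1, with a mean of 3.31 FPKM, is not among the genes averaging at least 10 FPKM.

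Cps1 (chromosome 1, 67123026 to 67231259, GRCm38) encodes carbamoyl phosphate synthetase, the entry step of the cycle. It was at 377 FPKM in CD and 355 in CD+7KC, and 233 in WD and 213 in WD+7KC. The WD libraries lay below the CD libraries with and without 7KC. Otc (chromosome X, 10252305 to 10321024), ornithine transcarbamylase, was at 254 FPKM in CD and 269 in CD+7KC, and 172 in WD and 118 in WD+7KC. It was again lower in both WD libraries, and lowest where 7KC was added to WD. Ass1 (chromosome 2, 31470207 to 31520672), argininosuccinate synthase, was at 141 FPKM in CD and 194 in CD+7KC, and 109 in WD and 98.4 in WD+7KC. Its highest level was in CD+7KC. Asl (chromosome 5, 130011258 to 130029247), argininosuccinate lyase, was at 311 FPKM in CD and 316 in CD+7KC, and 236 in WD and 189.7 in WD+7KC. Arg1 (chromosome 10, 24915221 to 24927484), the liver arginase that releases urea, was at 1075 FPKM in CD and 1027 in CD+7KC, and 1124 in WD and 852 in WD+7KC. It had the highest level of the 10 genes in every library, and its levels lay closest together, with a ratio of 1.32 between the highest and the lowest library.

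Sds (chromosome 5, 120476526 to 120483932), serine dehydratase, which turns serine into pyruvate and ammonia, was at 199 FPKM in CD and 295 in CD+7KC, and 239 in WD and 257 in WD+7KC. It was the only one of the 10 genes with its lowest level in CD. Hal (chromosome 10, 93488768 to 93519304), histidine ammonia-lyase, was at 70.4 FPKM in CD and 93.6 in CD+7KC, and 42.1 in WD and 31.0 in WD+7KC. The highest Hal level was 3.02 times the lowest, the widest span among the enzymes. Gls2 (chromosome 10, 128194457 to 128210004), the liver glutaminase that supplies ammonia next to Cps1, was at 111 FPKM in CD and 136 in CD+7KC, and 87.4 in WD and 87.9 in WD+7KC. Tat (chromosome 8, 109990437 to 109999803), tyrosine aminotransferase, a classic glucocorticoid-induced liver gene, was at 367 FPKM in CD and 412 in CD+7KC, and 350.2 in WD and 305 in WD+7KC. Cdh1 (chromosome 8, 106603351 to 106670246) was at 2.20 FPKM in CD and 0.945 in CD+7KC, and 6.19 in WD and 3.90 in WD+7KC, or 102, 43.9, 246 and 199.7 estimated reads. Both WD libraries lay above both CD libraries, and each 7KC library lay below its counterpart without 7KC. On the opposite strand, Sds overlaps the antisense gene Gm15690 and part of Plbd2, and Gls2 overlaps part of Spryd4. The libraries were stranded, but the strand setting of the FPKM step is not given in the sources used here, so that reads of these pairs may not be separated.

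**Figure D1:**
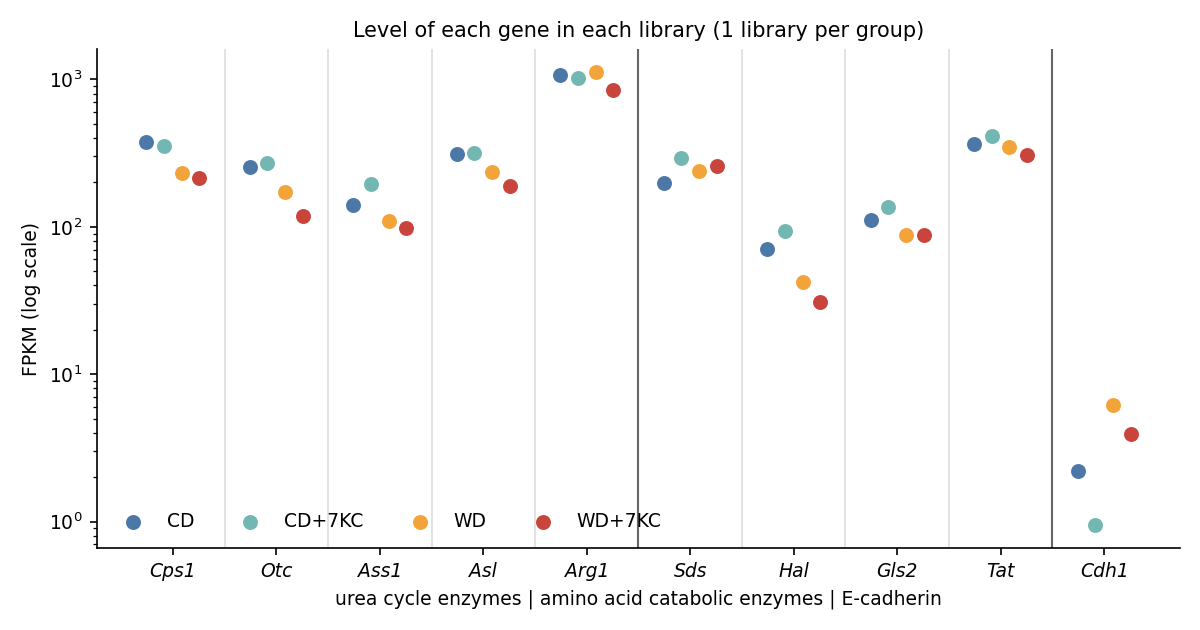
FPKM (log scale) of each of the 10 genes in the CD, CD+7KC, WD and WD+7KC libraries, 1 point per library. Cps1, Otc, Ass1, Asl, Hal, Gls2 and Tat were lower in both WD libraries than in both CD libraries, Arg1 stayed between 852 and 1124 FPKM, and Cdh1 was higher in both WD libraries.

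CD+7KC held the highest level of 7 of the 10 genes, namely Otc, Ass1, Asl, Sds, Hal, Gls2 and Tat. WD+7KC held the lowest level of 7 genes, the 5 urea cycle enzymes with Hal and Tat. After rescaling to equal sums CD+7KC held the highest level of 6 genes, since Sds was then highest in WD+7KC, and WD+7KC the lowest level of 4 (Otc, Asl, Arg1 and Hal). Between neighbours in this order the differences were often small. The Gls2 levels in WD and WD+7KC differed by a log2 fold change of 0.0090 (interval of the ratio -0.08 to 0.09), and the Asl levels in CD and CD+7KC by 0.024 (-0.02 to 0.07). In the deposited scaling neither difference was detectable at this depth, while after rescaling to equal sums Gls2 had 0.23 (0.14 to 0.31) and Asl 0.063 (0.02 to 0.11).

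The start regions of Otc, Ass1, Hal and Tat are shown because these 4 of the 10 genes were found in the RefSeq promoter table (GRCm38.p6), and because Otc, Hal and Ass1 had the largest differences of the 9 enzymes between the WD+7KC and CD+7KC libraries while Tat differed less. Each line gives the 250 bases before the RefSeq transcript start on the plus strand, or for Ass1 the 187 of them that lie outside its GENCODE gene, at chrX:10252055-10252304 for Otc, chr2:31470020-31470206 for Ass1, chr10:93488518-93488767 for Hal and chr8:109990186-109990435 for Tat. Capitals mark matches, on either strand, to the TATA box (searched as TATAAA), the CCAAT box (as CCAAT), the cAMP response element (as TGACGTCA, and its shorter form TGACG, which the longer one contains) and the glucocorticoid response letters (as AGAACA).
Otc: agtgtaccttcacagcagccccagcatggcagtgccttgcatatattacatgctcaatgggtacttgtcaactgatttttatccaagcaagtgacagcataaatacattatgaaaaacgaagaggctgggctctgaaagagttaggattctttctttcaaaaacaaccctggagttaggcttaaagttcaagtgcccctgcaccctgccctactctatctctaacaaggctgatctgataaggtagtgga
Ass1: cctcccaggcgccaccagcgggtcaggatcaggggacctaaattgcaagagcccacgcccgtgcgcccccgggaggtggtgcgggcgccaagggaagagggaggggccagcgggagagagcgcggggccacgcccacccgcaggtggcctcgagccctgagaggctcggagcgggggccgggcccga
Hal: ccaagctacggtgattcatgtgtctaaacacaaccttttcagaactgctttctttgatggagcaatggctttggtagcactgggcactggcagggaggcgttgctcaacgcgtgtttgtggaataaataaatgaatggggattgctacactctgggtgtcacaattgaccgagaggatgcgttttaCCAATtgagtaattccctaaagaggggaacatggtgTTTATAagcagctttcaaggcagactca
Tat: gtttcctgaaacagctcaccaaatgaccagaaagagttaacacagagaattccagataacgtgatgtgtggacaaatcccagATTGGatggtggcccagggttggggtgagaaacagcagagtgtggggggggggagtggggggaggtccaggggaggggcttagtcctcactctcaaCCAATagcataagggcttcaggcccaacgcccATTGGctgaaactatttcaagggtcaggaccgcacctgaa

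Hal held a CCAAT match 64 bases upstream and, on the other strand, a TATAAA match 28 bases upstream of its start. Tat held 3 CCAAT matches, at 168, 72 and 40 bases upstream, and these letters were not in the Otc or Ass1 windows. Of the 32851 windows of this length in the table, 33.8% held the CCAAT box and 12.4% the TATA box. The long form of the cAMP response element was found in 1.55%, its short form in 17.8% and the glucocorticoid response letters in 16.1%, and none of these letters was in a window of the 4 genes. The matches describe the letters only.

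To ask how the diet bore on these genes, WD was compared to CD. Of the 10 genes, 7 were lower in WD, as were 49% of the 15597 genes above 0 FPKM in either library and 47.7% of the 4652 genes with an average of at least 10 FPKM. The 3 higher ones were Arg1, Sds and Cdh1. Cps1 had a log2 fold change of -0.69 (interval -0.73 to -0.66) and Otc of -0.56 (-0.63 to -0.50). Asl had -0.40 (-0.45 to -0.34) and Ass1 -0.37 (-0.46 to -0.27). Arg1 had 0.065 (0.03 to 0.10), so that the first 4 steps of the cycle were lower in WD and the last was not. Among the catabolic enzymes Hal was lowest in WD with -0.74 (-0.82 to -0.67), followed by Gls2 with -0.35 (-0.43 to -0.26) and Tat with -0.066 (-0.11 to -0.02; 0.015 with scaling to hepatocyte genes), and Sds was higher with 0.26 (0.18 to 0.35). Cdh1 was 2.82 times as high in WD as in CD, a log2 fold change of 1.45 (interval of the ratio 1.15 to 1.84).
In WD compared to CD, 1 gene of the 10 was called higher (Cdh1) and none lower, where 5.31% of all genes were called higher and 4.38% lower. At 1.5-fold, Cps1 and Hal were lower, beside 10.8% of all genes and 4.77% of those averaging at least 10 FPKM. The median log2 fold change of the 10 genes was -0.36, compared to 0.0097 for all genes. With 1 library per group these counts are descriptions.

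The same diet difference in the presence of 7KC, WD+7KC compared to CD+7KC, gave a lower value in the deposited FPKM for each of the 9 enzymes than the comparison without it, and for 8 of them after rescaling to equal sums, Cps1 being the exception. Before rescaling 9 of the 10 genes were lower in WD+7KC, while 49.8% of all genes and 59.4% of the 4662 genes averaging at least 10 FPKM were lower. Hal had a log2 fold change of -1.59 (-1.67 to -1.52), and 1.62% of all genes had a lower value. Otc had -1.19 (-1.25 to -1.13), Ass1 -0.98 (-1.06 to -0.90), Cps1 -0.74 (-0.77 to -0.70) and Asl -0.74 (-0.79 to -0.68). Among the urea cycle enzymes Otc thus differed most, and Arg1 least. Gls2 had -0.63 (-0.71 to -0.56), Tat -0.43 (-0.48 to -0.39), Arg1 -0.27 (-0.30 to -0.24) and Sds -0.20 (-0.27 to -0.13). Cdh1 again went the other way and was 4.12 times as high in WD+7KC as in CD+7KC, a log2 fold change of 1.94 (interval of the ratio 1.57 to 2.55).
Otc and Hal were called lower and Cdh1 higher, where 4.61% of all genes were called lower and 8.01% higher. Of genes averaging at least 10 FPKM, to which the 9 enzymes belong, 3.24% were called lower. At 1.5-fold, 6 genes of the 10 were lower (Cps1, Otc, Ass1, Asl, Hal and Gls2), beside 11.4% of all genes and 9.05% of those averaging at least 10 FPKM. With equal sums Otc, Ass1 and Hal were the 3 that passed 1.5-fold lower, beside 5.23% of genes averaging at least 10 FPKM. The median log2 fold change of the 10 genes was -0.68, against 0.0026 for all genes. After rescaling to equal sums it was -0.47 against 0.20, and 8 of the 10 genes were lower, beside 34.2% of genes averaging at least 10 FPKM. Sds then changed sign to 0.0099 and Otc came to -0.98, which is short of 2-fold.

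**Figure D2:**
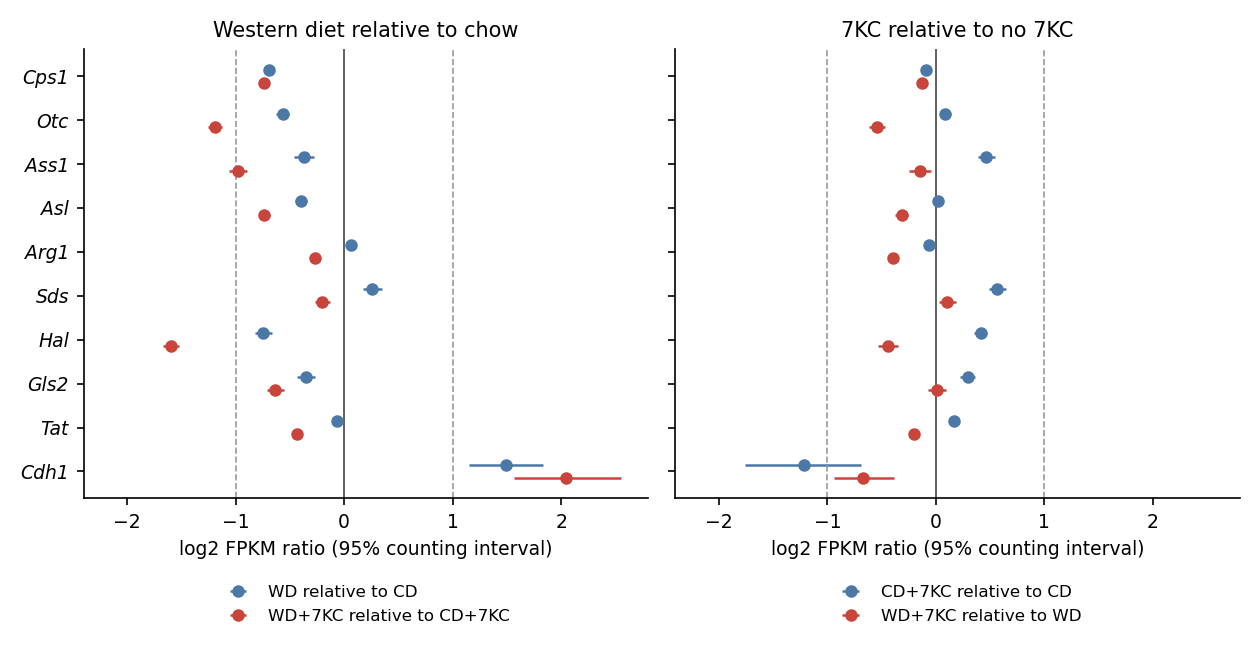
Log2 FPKM ratio of each of the 10 genes with its 95% counting interval, for the diet comparisons (left) and the 7KC comparisons (right). Dashed lines mark 2-fold, the intervals exclude variation between mice, and Otc, Hal and Cdh1 are the genes beyond 2-fold in WD+7KC compared to CD+7KC.

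Ratios within a library do not depend on scaling and showed that the enzymes differed unequally. The FPKM ratio of Arg1 to Cps1 was 2.85 in CD and 2.89 in CD+7KC, and 4.82 in WD and 4.00 in WD+7KC. That of Sds to Hal was 2.83 in CD and 3.15 in CD+7KC, and 5.67 in WD and 8.28 in WD+7KC. Both ratios were higher in both WD libraries than in both CD libraries. The ratio of Ass1 to Otc did not separate the diets, at 0.55 in CD and 0.72 in CD+7KC, and 0.64 in WD and 0.84 in WD+7KC. Not all ratios that were taken are shown, and they restate the levels given above.

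To ask what 7KC added, CD+7KC was compared to CD and WD+7KC to WD. Under CD, the 4 catabolic enzymes were all higher with 7KC. Sds had a log2 fold change of 0.57 (0.49 to 0.65), Hal of 0.41 (0.35 to 0.47), Gls2 of 0.29 (0.22 to 0.36) and Tat of 0.17 (0.13 to 0.21). Of the urea cycle enzymes Ass1 had 0.46 (0.39 to 0.54) and Otc 0.085 (0.03 to 0.14), whereas Cps1 had -0.088 (-0.12 to -0.06) and Arg1 -0.065 (-0.10 to -0.03), and Asl was given above. Cdh1 was called lower, with a log2 fold change of -1.14 (interval of the ratio -1.76 to -0.69), where 2.91% of all genes were called lower. This call was lost with scaling to hepatocyte genes (-0.84) and with a pseudocount of 1 (-0.72). In the deposited values no gene of the 10 was called higher, where 3.84% were. In all, 7 of the 10 genes were higher, compared to 49.3% of all genes and 46.3% of the 4660 genes averaging at least 10 FPKM, with a median of 0.13 compared to -0.0012 for all genes. Rescaled to equal sums, 7 of the 10 remained higher, with a median of 0.17, beside 55.4% of genes averaging at least 10 FPKM. Scaling to hepatocyte genes turned Cps1 (0.23) and Arg1 (0.25) to higher values, where 93.4% of genes averaging at least 10 FPKM were higher. Those genes had a median of 0.30 with this scaling, above both values.

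Under WD, 7KC went with lower levels of 8 of the 10 genes. Otc had a log2 fold change of -0.54 (-0.61 to -0.47), Hal of -0.44 (-0.53 to -0.35), Arg1 of -0.40 (-0.43 to -0.36) and Asl of -0.32 (-0.37 to -0.26). Smaller values were found for Tat with -0.20 (-0.25 to -0.15), Ass1 with -0.15 (-0.25 to -0.05) and Cps1 with -0.13 (-0.16 to -0.09), while Sds had 0.11 (0.03 to 0.18). Cdh1 had -0.65 (interval of the ratio -0.94 to -0.39). No gene of the 10 passed 2-fold, where 6.21% of all genes were called higher and 2.79% lower. At 1.5-fold Cdh1 was lower, beside 6.86% of all genes, but not after rescaling to equal sums. The 8 lower genes of 10 stand beside 49.8% of all genes and 72% of the 4657 genes averaging at least 10 FPKM, so that most well expressed genes were also lower in this comparison. The median of the 10 genes was -0.26.
After rescaling to equal sums 5 of the 10 genes were higher and 5 lower, beside 31.5% of genes averaging at least 10 FPKM lower, with a median of -0.042 against 0.21 for all genes. Otc (-0.32), Hal (-0.22), Arg1 (-0.18), Asl (-0.10) and Cdh1 (-0.44) kept a lower level, and Cps1 (0.09), Ass1 (0.07) and Tat (0.02) changed sign. The direction of those 3 genes between WD and WD+7KC therefore depended on the scaling.

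Between the diets, the change with 7KC was lower under WD than under CD for the 9 enzymes in the deposited values. Arithmetic ties this to the diet result above. The difference between the changes with 7KC equals the diet change with 7KC minus the diet change without it. It is therefore not a separate finding. The difference of the log2 fold changes (WD+7KC to WD minus CD+7KC to CD) was largest for Hal with -0.85, followed by Otc with -0.63 and Ass1 with -0.61, and smallest for Cps1 with -0.041. For Cdh1 it was 0.48. The median over the 10 genes was -0.35, or -0.18 after rescaling to equal sums, where 8 of the 10 remained below 0 and Cps1 came to 0.14. In the deposited values the median over all 15029 genes with both values was -0.0076 with 50.8% below 0, and over 4646 genes averaging at least 10 FPKM it was -0.11 with 65.5% below 0. These shares were not taken after rescaling, so they stand beside the deposited values only. No test of this difference was possible. The plot of one change against the other sets comparisons side by side that share no library. Each library stands in both a diet and a 7KC comparison, however, so the distance from equal change restates the diet comparisons.

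**Figure D3:**
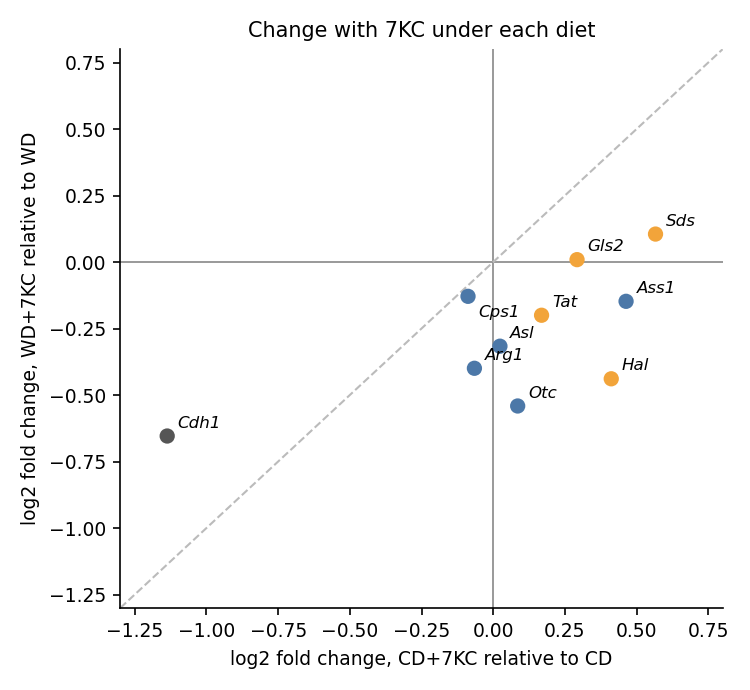
Log2 fold change with 7KC under CD (x axis) and under WD (y axis) for the 10 genes, with urea cycle enzymes in blue, catabolic enzymes in orange and Cdh1 in grey. The 9 enzymes lie below the dashed line of equal change and Cdh1 lies above it.

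The other enzymes of the same routes, taken from lists that leave out the 10 genes, showed in which steps the levels differed. In the histidine route, Hal opens the way and Uroc1, Amdhd1 and Ftcd follow. Uroc1, urocanate hydratase, was at 127 FPKM in CD and 157 in CD+7KC, and 104 in WD and 99.3 in WD+7KC. Amdhd1, the next enzyme, was at 77.0, 80.0, 68.2 and 45.8 FPKM in the same order, and Ftcd at 138, 139.8, 110.2 and 99.3 FPKM. In WD+7KC these steps stood at 44.0% (Hal), 78.4%, 59.5% and 72.2% of their CD level. In the tyrosine route, the lowest step was Hpd, which converts the product of Tat. Hpd was at 1242 FPKM in CD and 1305 in CD+7KC, and 648 in WD and 489.7 in WD+7KC, while Tat kept 95.6% of its CD level in WD and 83.2% in WD+7KC. Both routes were chosen for display after their values had been seen.

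**Figure D4:**
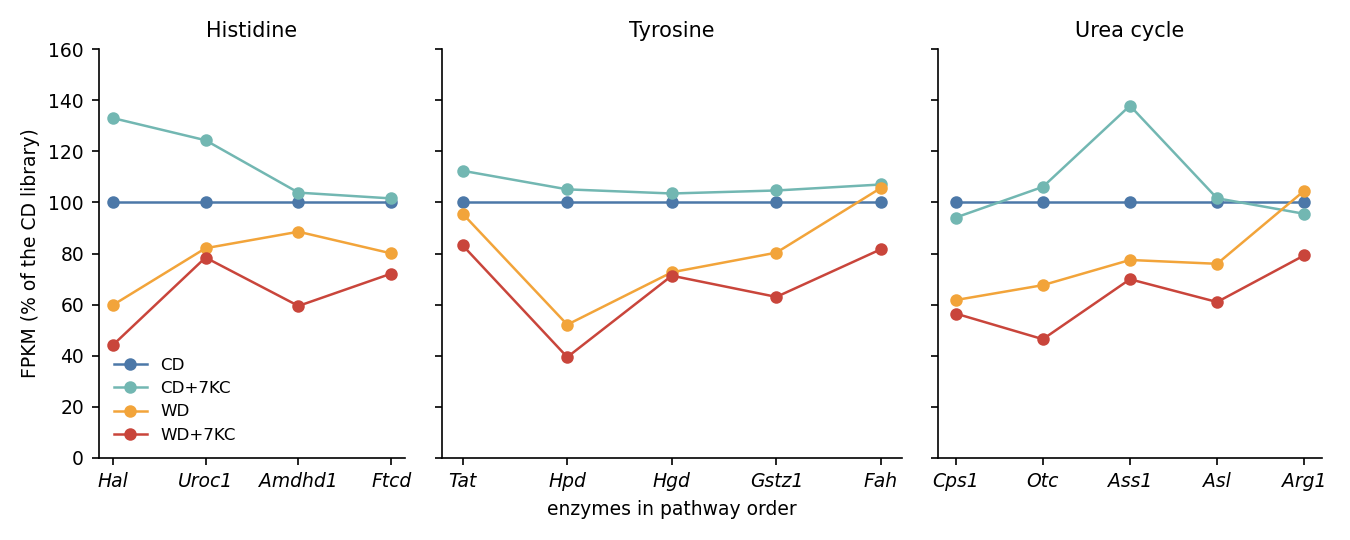
FPKM of the enzymes of histidine breakdown, tyrosine breakdown and the urea cycle in pathway order, as a percentage of the CD library. In WD+7KC (red) Hpd stands at 39.4%, Hal at 44.0% and Otc at 46.5% of CD, while Ass1 in CD+7KC stands at 138%.

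A list of 39 other amino acid catabolic enzymes had 38 with a value (Dao was listed at 0 in all 4 libraries). The extremes named for this and the other lists are those among genes averaging at least 1 FPKM. In WD compared to CD, 31 of them were lower and 7 higher, with a median of -0.32, beside 49% of all genes lower. Cth, which makes cysteine from cystathionine, had the lowest value (-1.16) and was at 176 FPKM in CD and 202 in CD+7KC, and 78.6 in WD and 64.8 in WD+7KC. Tha1, threonine aldolase, had the highest (0.82) at 2.44 FPKM in CD and 4.39 in WD. In WD+7KC compared to CD+7KC 35 were lower and 3 higher, with a median of -0.62, or after rescaling to equal sums 34 lower and 4 higher with a median of -0.41. Of genes averaging at least 10 FPKM 59.4% were lower there, or 34.2% after rescaling. Called lower were 6 of the 38, where 4.61% of all genes and 3.24% of those averaging at least 10 FPKM were called lower in the deposited values. After rescaling 3 of the 38 were called lower, beside 3.67% of all genes and 2.42% of those averaging at least 10 FPKM. Under CD, 28 were higher with 7KC and 10 lower, with a median of 0.06, beside 46.3% of genes averaging at least 10 FPKM higher. Under WD, 33 were lower with 7KC and 5 higher with a median of -0.29, but after rescaling 21 were lower and 17 higher with a median of -0.07. Of genes averaging at least 10 FPKM 72% were lower under WD with 7KC, or 31.5% after rescaling. The extremes there were Agxt, which detoxifies glyoxylate, with -0.79 and Oat, which degrades ornithine and is pericentral, with 0.53.

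The partners of the cycle did not share 1 direction. Of 11 carriers, activators and nitrogen suppliers, 5 were lower and 6 higher in WD compared to CD, with a median of 0.04, beside 49% of all genes lower. Nags, which makes the activator that Cps1 needs, was at 25.5 FPKM in CD and 27.3 in CD+7KC, and 29.2 in WD and 22.3 in WD+7KC. Car5a, the mitochondrial carbonic anhydrase that supplies bicarbonate to Cps1, was at 50.5 FPKM in CD and 53.4 in CD+7KC, and 30.9 in WD and 22.7 in WD+7KC, which made it the lowest among those averaging at least 1 FPKM in WD compared to CD (-0.71) and in WD+7KC compared to WD (-0.44). Sirt5, a mitochondrial deacylase that acts on Cps1, was the highest of those in WD compared to CD (0.34), and Got1, an aspartate aminotransferase, in WD+7KC compared to WD (0.25).

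Of 10 other periportal genes, 6 were lower in WD compared to CD (median -0.17) and 7 in WD+7KC compared to CD+7KC (median -0.55, or 6 with a median of -0.34 after rescaling). Of all genes 49% were lower in the first comparison and 49.8% in the second. Of genes averaging at least 10 FPKM 47.7% and 59.4% were lower, or 34.2% in the second after rescaling. Cyp2f2, a widely used periportal marker, was at 996 FPKM in CD and 1169 in CD+7KC, and 645 in WD and 528 in WD+7KC. Etnppl was lowest in WD compared to CD (-1.22) and Hsd17b6 highest (0.81). In WD+7KC compared to WD the lowest was G6pc (-1.10), which releases glucose, and the highest Ctsc (0.55). Of 14 pericentral genes, 9 were lower in WD compared to CD (median -0.06) and 12 in WD+7KC compared to CD+7KC (median -0.32, or 9 with a median of -0.11 after rescaling). These counts stand beside the same shares of lower genes. Glul, the pericentral glutamine synthetase, was at 262 FPKM in CD and 281 in CD+7KC, and 309 in WD and 314 in WD+7KC. In WD compared to CD the extremes were Lect2 (0.33) and Rhbg, an ammonium transporter at 8.88 FPKM in CD and 4.39 in WD, and Oat (0.53) and Cyp7a1 (-0.99) in WD+7KC compared to WD.

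**Figure D5:**
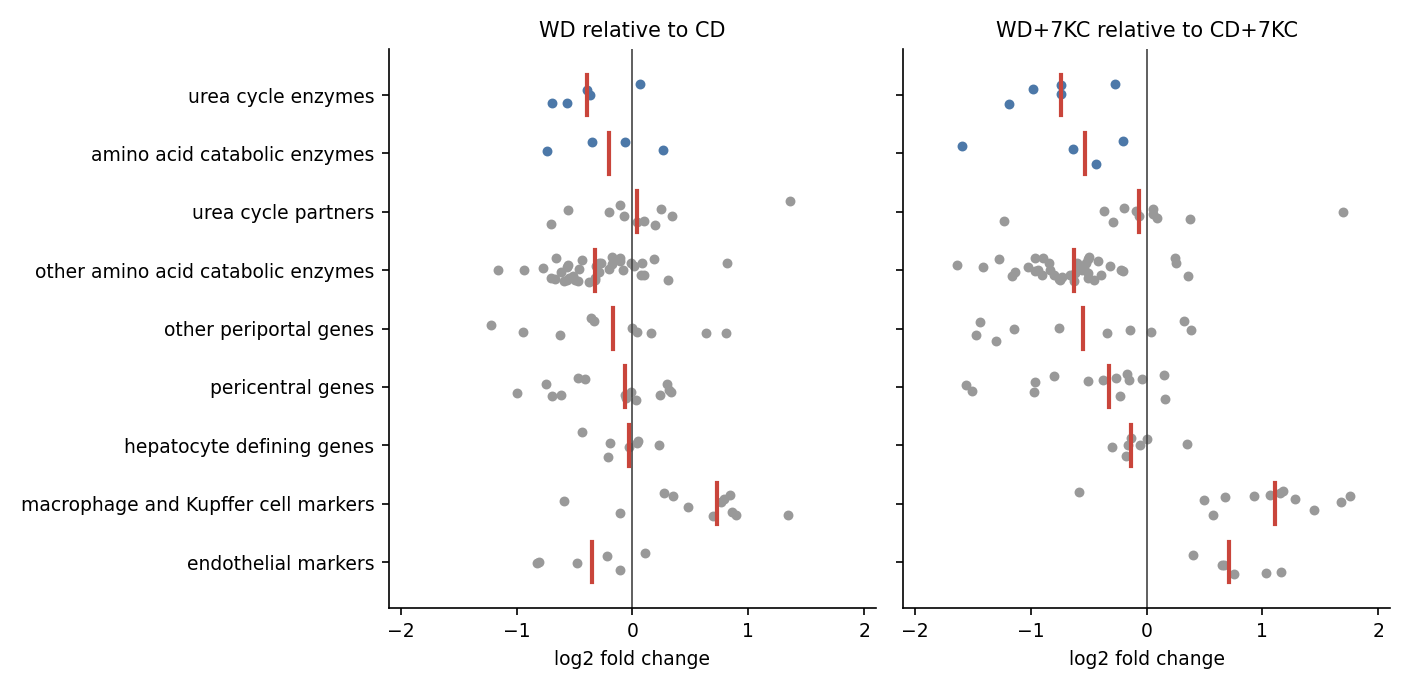
Log2 fold change of the genes of 9 lists in WD compared to CD (left) and WD+7KC compared to CD+7KC (right), 1 point per gene with the list median as a red line. In the deposited values plotted, the urea cycle and catabolic enzymes (blue) have medians of -0.40 and -0.21 on the left and -0.74 and -0.53 on the right. Macrophage markers lie at 0.73 and 1.11. After rescaling to equal sums the medians of the right comparison are -0.53 and -0.32 for the enzymes and 1.32 for macrophage markers.

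Markers of other liver cells moved with the same comparisons. The FPKM of 12 macrophage and Kupffer cell markers summed to 200.3 in CD and 283 in CD+7KC, and 315 in WD and 571 in WD+7KC, and none was at 0. In WD+7KC compared to WD 12 of 12 were higher (Marco 0.65 to Adgre1 1.55), and in WD compared to CD 10 of 12 (Cd163 -0.59 to Cd68 1.34). Of all genes 50.2% and 50.9% were higher in these comparisons. The 6 endothelial markers summed to 55.0, 80.2, 43.5 and 123 FPKM in the order CD, CD+7KC, WD and WD+7KC, and 6 of 6 were higher in WD+7KC compared to WD (Pecam1 1.07 to Kdr 1.95). Against this, 5 of 6 were lower in WD compared to CD, from Lyve1 with -0.83 to Stab2 with 0.11. The median of the 7 hepatocyte genes measured was -0.030 in WD compared to CD, -0.14 in WD+7KC compared to CD+7KC, -0.20 in CD+7KC compared to CD and -0.27 in WD+7KC compared to WD. With equal sums it was 0.072 in WD+7KC compared to CD+7KC, with 6 of 7 higher, and -0.049 in WD+7KC compared to WD. Genes averaging at least 10 FPKM then had medians of 0.13 and 0.099 in these comparisons, and 65.8% of them were higher in the first. The part of these markers in the lower enzyme levels was not tested. When each library was scaled to the hepatocyte genes instead, a choice made after the values were seen, the 10 genes had a median of -0.28 in WD compared to CD and -0.62 in WD+7KC compared to CD+7KC, of 0.44 in CD+7KC compared to CD and of 0.04 in WD+7KC compared to WD, beside 0.081, 0.067, 0.30 and 0.29 for all genes.

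Since bile duct cells also carry E-cadherin, Cdh1 was set beside 7 of their markers. Krt19 was at 1.09 FPKM in CD and 0.774 in CD+7KC, and 0.632 in WD and 0.773 in WD+7KC, and Epcam at 1.03, 0.731, 0.853 and 1.06 FPKM in that order. Of the 7 markers 5 were lower in WD compared to CD, where Cdh1 was higher, and Cftr was listed at 0 in 3 libraries. In CD+7KC compared to CD 7 of 7 were lower, as was Cdh1. Of all genes 49% were lower in WD compared to CD and 50.7% in CD+7KC compared to CD. Spp1, which macrophages also express, made up most of their summed level, which was 107 FPKM in CD and 50.6 in CD+7KC, and 132 in WD and 190.6 in WD+7KC. Stellate cell markers (6 genes) summed to 164 to 202 FPKM across the libraries, and Dcn made up most of this sum. Of these markers 4 were higher in WD compared to CD, from Col1a1 with -0.07 to Lrat with 0.74. In WD+7KC compared to WD 1 was higher, from Des with -0.25 to Col1a1 with 0.27, or 4 after rescaling to equal sums (median -0.16 before and 0.052 after). Of all genes 50.9% were higher in the first comparison and 50.2% in the second, or 73% in the second after rescaling. In CD+7KC compared to CD 4 stellate markers were lower and 2 higher, from Col1a1 with -1.25 to Lrat with 0.13, beside 50.7% of all genes lower. Lymphocyte and neutrophil markers (6 genes) summed to 16.2 to 25.1 FPKM, and S100a8 and S100a9 made up most of this sum. Ptprc, also on this list, was at 1.77 FPKM in CD and 2.16 in CD+7KC, and 1.99 in WD and 4.92 in WD+7KC. In WD+7KC compared to WD 3 of the 6 were higher and 3 lower, or 4 higher and 2 lower with equal sums, beside the same shares of all genes. The part of any of these cells in the Cdh1 level was not tested.

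Genes with the most similar pattern were sought among genes averaging at least 10 FPKM, by the Euclidean distance of log2 levels centred over the 4 libraries. Nearest to the mean of the 5 urea cycle enzymes among 4666 genes were Aspg (distance 0.05), Tgds (0.05), Cat (0.05), Gch1 (0.06) and Acsm1 (0.06). Aspg, an asparaginase, was at 59.4 FPKM in CD and 64.2 in CD+7KC, and 47.2 in WD and 37.9 in WD+7KC. Cat, catalase, was at 1472 FPKM in CD and 1524 in CD+7KC, and 1151 in WD and 916 in WD+7KC. Of the enzymes themselves Asl lay nearest to their mean (0.05) and Arg1 farthest (0.50). Nearest to the mean of the 4 catabolic enzymes among 4667 genes were Apol7a (0.03), Uroc1 (0.06), Aamdc (0.08), Aldh1a1 (0.09) and Agmo (0.09). Gls2 was the nearest of the 4 (0.11), and Hal with 0.73 and Sds with 0.55 lay farther from their own mean than Ass1 with 0.22. With 4 libraries many genes share a pattern.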

How the data were processed

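Liver RNA of 4 groups with 1 library each was measured. The authors sequenced stranded mRNA libraries from 1 end, aligned the reads to mm10 with TopHat2 2.0.13, Bowtie2 2.2.3 and SAMtools 0.1.19 and deposited FPKM values from Cufflinks 2.2.1, with versions from the submitters' processing notes. The gene annotation and Cufflinks options are not given in the sources used here. Groups came from the sample titles.

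Log2 fold changes used a pseudocount of 0.1 FPKM and were taken for genes above 0 in either library. Without replicates no test was made. The members and gene lists were chosen with earlier results of these data known. Named were the 10 genes, Alb, Arg2, Nags, Glul, Cyp2f2, the extremes of each list averaging at least 1 FPKM (WD compared to CD, WD+7KC compared to WD) and the 5 nearest patterns. Others were named after their values were seen. Tf and Ly6g of the lists were not analysed here. Some single-gene values are not reported here.

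Read numbers were estimated from FPKM, the RefSeq-linked mRNA length (GENCODE vM21, GRCm38) minus 200 bases and a depth fitted to the steps of low values over 14496 genes with 1 such mRNA. Of values under 8 reads, 70.9% to 72.8% lay within 0.1 of a whole number. The 10 genes had 1 such mRNA each. Alternatives were other pseudocounts, filters, scalings and thresholds. The code was tested on simulated data. Python 3.11.15, numpy 2.4.6, pandas 2.3.3, scipy 1.17.1 and matplotlib 3.10.9 were used.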

Additional observations from a re-analysis of the deposited data

Results flagged for a closer look

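Some genes went in opposite directions in the same contrast, with counting intervals on opposite sides of 0. With 7KC, Otc had a log2 fold change of 0.085 under CD and -0.54 under WD, Ass1 of 0.46 and -0.15, Hal of 0.41 and -0.44, and Tat of 0.17 and -0.20. For the diet, Arg1 had 0.065 without 7KC and -0.27 with it, and Sds had 0.26 and -0.20. With 1 library per group, none of these differences was tested. After rescaling to equal sums the values under WD were -0.32 for Otc and -0.22 for Hal, still opposite to those under CD, while Ass1 (0.07) and Tat (0.02) were above 0 under both diets. With 7KC, Arg1 kept -0.06 and Sds came to 0.0099 after rescaling.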

How the results depend on the processing

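No paired analysis was possible because each group had 1 library, and no value below has a replicate check. In WD compared to CD the median of the 10 genes was -0.36 and became -0.28 with scaling to hepatocyte genes. Called higher was 1 gene, and 0 at 4-fold or among genes averaging at least 10 FPKM, which removes Cdh1. Called lower were 0, and 2 at 1.5-fold. In WD+7KC compared to CD+7KC the median of -0.68 became -0.47 with equal sums, -0.49 with equal sums without the 20 highest genes and -0.62 with hepatocyte genes. Called lower were 2, then 1 under both equal-sum scalings, 6 at 1.5-fold and 0 at 4-fold, and called higher 1, then 0 at 4-fold or without Cdh1. In CD+7KC compared to CD the median of 0.13 became 0.44 with hepatocyte genes, which themselves were lower in CD+7KC. Called lower was 1, and 0 with a pseudocount of 1, at 4-fold, with hepatocyte genes or without Cdh1. In WD+7KC compared to WD the median of -0.26 became -0.042 with equal sums, -0.084 without the 20 highest genes and 0.044 with hepatocyte genes, and called lower were 0, then 1 at 1.5-fold. The difference between the changes with 7KC had a median of -0.35, which became -0.18 with equal sums and -0.19 without the 20 highest genes. Upper quartile and median ratio scaling, pseudocounts of 0.01 or none and a filter of at least 1 FPKM moved none of these medians beyond the counting error. The cause was not tested where none is named. Over 6 scalings the sign held for 9 genes in WD compared to CD (not Tat), 9 in WD+7KC compared to CD+7KC (not Sds), 8 in CD+7KC compared to CD (not Cps1 and Arg1) and 7 in WD+7KC compared to WD (not Cps1, Ass1 and Tat). Depth limited Cdh1 most, with 43.9 estimated reads in CD+7KC.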

Other observations

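Arg2, the mitochondrial arginase found outside the urea cycle, was at 0.0749 FPKM in CD and 0.224 in CD+7KC, and 0.349 in WD and 0.949 in WD+7KC. These levels rest on 1.01, 3.02, 4.03 and 14.1 estimated reads. The log2 ratio of WD+7KC to WD was 1.44 with a 95% counting interval of -0.23 to 3.50, which includes no difference. Of the other genes that use arginine or its products, Odc1, which makes polyamines from ornithine, had -0.049 in WD compared to CD and 0.16 in WD+7KC compared to WD. Slc7a2, an arginine transporter, had -0.20 and 0.055 in the same comparisons, and Nos2 was listed at 0 in CD and WD.

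Of 10 amino acid transporters, 8 were lower in WD compared to CD, with a median of -0.29, and 4 were lower in WD+7KC compared to WD, with a median of 0.087, or 3 with a median of 0.30 after rescaling to equal sums. Of all genes 49% were lower in the first comparison and 49.8% in the second, or 27% of them after rescaling. Among those averaging at least 1 FPKM, Slc38a2 (-0.43) and Slc3a2 (0.32) were the extremes in WD compared to CD, and Slc38a4 (-0.26) and Slc1a4 (0.59) in WD+7KC compared to WD. Of 15 receptors, factors and targets of the fasting hormones, 10 were lower in WD compared to CD (median -0.20), beside 49% of all genes. In WD+7KC compared to WD 10 were lower (median -0.17), or 6 with equal sums (median 0.042). Of genes averaging at least 10 FPKM 72% were lower there, or 31.5% with equal sums. Igfbp1, a binding protein that insulin keeps low, was at 90.9 FPKM in CD and 41.6 in CD+7KC, and 46.7 in WD and 47.6 in WD+7KC. Tsc22d3, a glucocorticoid target, was at 37.1 FPKM in CD and 43.1 in CD+7KC, and 29.3 in WD and 19.9 in WD+7KC. Fkbp5, also a glucocorticoid target, was at 13.4 FPKM in CD and 12.3 in CD+7KC, and 15.8 in WD and 18.5 in WD+7KC. It went the opposite way to Tsc22d3 in every comparison, and a part of glucocorticoids was not tested. Per1 (0.56) was the highest of this list averaging at least 1 FPKM in WD compared to CD, and Creb1 (0.34) in WD+7KC compared to WD.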
